A study of Mus musculus with 6 samples.

Results

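Caveolae are small flask-shaped pits of the plasma membrane. Caveolins, hairpin proteins inserted in the inner leaflet, build the bulb together with cavins, a family of peripheral coat proteins, while EHD and pacsin proteins shape and hold the neck. Caveolae are abundant in endothelium, adipocytes, muscle and fibroblasts, and they buffer membrane tension, take up cargo and gather signalling receptors. The genes described here are the 8 genes Cav1, Cav2, Cavin1, Cavin2, Cavin3, Ehd2, Pacsin2 and Pacsin3, found by their GENCODE symbols among 49585 gene identifiers, and all 8 passed the filter on low counts that left 13759 genes. They were chosen with results of the comparison below already known. Their fold changes are therefore given as a description with standard errors, and no p-value is attached to them.

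The libraries came from intestinal adenoma cells of C57BL/6 mice grown in Matrigel as tumoroids, in medium with Noggin, R-spondin, EGF, basic FGF and a ROCK inhibitor. The KO group (3 libraries) was IKKa FL/FL and the WT group (3 libraries) IKKa +/+, and both were APC min/+ and carried Villin-Cre. Every library was thus labelled as heterozygous for the Min allele of Apc and as carrying Cre under the Villin promoter, whose activity marks intestinal epithelium. The state of the other Apc allele in the adenoma cells was not examined. The genotypes differed in the floxed alleles of Chuk, the gene of the kinase IKKa. The labels call the libraries of a group biological replicates without saying whether they came from separate mice or cultures, so the p-values speak to the spread among these 6 libraries alone, and that spread may be technical.

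Library totals were 26785922 to 31875723 counts in KO and 20749747 to 29752507 in WT. Chuk itself had 29.4 ± 5.28 CPM (counts scaled to library size with TMM factors) in KO and 101 ± 5.21 CPM in WT (mean ± SD, n = 3 each), 3.42-fold lower in KO (adjusted p = 8.6e-08). All adjusted p-values come from the quasi-likelihood test of edgeR with Benjamini-Hochberg adjustment over all genes tested. Of all 13759 genes, 57.4% passed an adjusted p of 0.05 in either direction. KO replicate 2 stood apart from the other KO libraries, with a chi-square of counts per degree of freedom of 39.7 and 40.2 against them, where they had 5.86 between themselves. Pairs of WT libraries had 13.0, 17.6 and 21.6. Transcripts of the sex chromosomes differed too: Xist had 6 counts in all KO libraries and 95406 in all WT libraries, and Ddx3y 4502 in KO and 0 in WT, so genotype and sex cannot be told apart. None of the 8 genes lies on a sex chromosome, but whether their levels differ with sex was not tested.

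Most of the caveola genes were higher in KO than in WT tumoroids. Of the 8 genes, 6 were called higher and 0 lower, all 6 by at least 4-fold, and the median log2 fold change over the 8 was 2.79. Over all genes tested, 30.4% were called higher in KO, 9.02% were called and at least 4-fold higher, and the median log2 fold change was 0.00. In 7 of the 8 genes every KO library lay above every WT library, which held for 32.7% of all genes. Libraries of the genotypes did not overlap, in either direction, for 63.1% of all genes. The genes were picked on this contrast, so these counts only describe them. In bulk RNA, more cells with caveolae and more message per cell cannot be told apart.

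**Figure D1:**
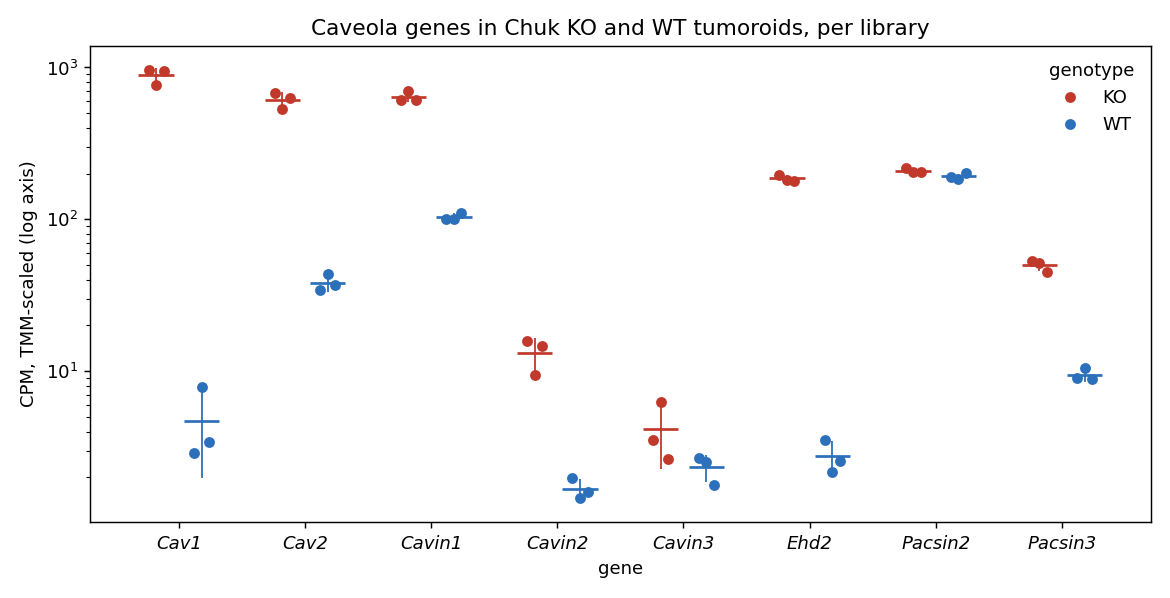
CPM on a log axis of the 8 caveola genes in each library, with KO (red) left of WT (blue). Points are libraries, horizontal bars the mean of 3 libraries and vertical bars ± 1 SD. The genotypes overlap only for Cavin3, and the widest gap is that of Cav1, at 771 to 961 CPM in KO and 2.88 to 7.85 CPM in WT.

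Cav1 encodes caveolin-1, the scaffold without which most non-muscle cells form no caveolae. It lies on GRCm38 chromosome 6 (17306335 to 17341452, plus strand, ENSMUSG00000007655). Cav1 had 961, 771 and 946 CPM in the 3 KO libraries, against 2.88, 7.85 and 3.42 CPM in the 3 WT libraries. It was thus in the lower part of the measured range in WT and among the most abundant messages in KO: by CPM per kb of merged exon it ranked 90 of 13741 ranked genes in KO and 10209 in WT. In raw counts, 80312 KO reads stood against 340 WT reads. The fitted log2 fold change was 7.64 ± 0.24 (SE), or 199.9-fold, the largest of the 8 genes. WT replicate 2 held more Cav1 than the other WT libraries, 162 counts where they had 86 and 92.

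Cav2 encodes caveolin-2, which joins caveolin-1 in mixed oligomers and depends on it to reach the plasma membrane. It lies upstream of Cav1 on the same strand (chromosome 6, 17281185 to 17289115, ENSMUSG00000000058), with 17.2 kb between the genes. Cav2 had 682, 530 and 629 CPM in KO, against 34.1, 43.7 and 36.7 CPM in WT. The pattern over the libraries was the one of Cav1, with KO replicate 2 lowest in KO and WT replicate 2 highest in WT. The log2 fold change was 4.01 ± 0.12, or 16.2-fold. The WT tumoroids therefore had more caveolin-2 than caveolin-1 message per length, and the KO tumoroids less: the ratio of Cav2 to Cav1 in CPM per kb was 0.733, 0.71 and 0.686 in KO, against 12.2, 5.75 and 11.1 in WT. Cav3, the muscle caveolin, had 0 counts in all 6 libraries.

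The sequence before the start of these neighbours is shown because they are the pair with the highest level per kb in KO, together with that of Cavin2, a member with a smaller rise, and of Pacsin2, which differed little. All are RefSeq sequences of build GRCm38.p6, 250 bases ending at the base before the annotated start, which is the same in RefSeq and GENCODE for these 4 genes. Capitals mark matches on either strand to the 6 motifs searched: the Sp1 motif GGGCGG, the AP-1 motif TGANTCA, the TEAD motif GGAATG, the TCF/LEF motif CTTTGAT, the CArG box and the NF-kB site.
Cav1, chr6:17306085-17306334, plus strand: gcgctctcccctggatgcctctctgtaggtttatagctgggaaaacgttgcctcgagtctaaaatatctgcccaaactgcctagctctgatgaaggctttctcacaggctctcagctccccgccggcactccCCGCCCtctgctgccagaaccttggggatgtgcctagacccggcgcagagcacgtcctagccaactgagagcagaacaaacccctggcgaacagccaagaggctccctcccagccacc
Cav2, chr6:17280935-17281184, plus strand: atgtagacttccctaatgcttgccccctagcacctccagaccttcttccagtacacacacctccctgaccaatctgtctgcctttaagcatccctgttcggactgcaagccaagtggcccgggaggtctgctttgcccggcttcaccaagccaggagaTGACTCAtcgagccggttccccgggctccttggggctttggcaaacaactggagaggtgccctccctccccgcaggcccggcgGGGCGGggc
Cavin2, chr1:51288876-51289125, plus strand: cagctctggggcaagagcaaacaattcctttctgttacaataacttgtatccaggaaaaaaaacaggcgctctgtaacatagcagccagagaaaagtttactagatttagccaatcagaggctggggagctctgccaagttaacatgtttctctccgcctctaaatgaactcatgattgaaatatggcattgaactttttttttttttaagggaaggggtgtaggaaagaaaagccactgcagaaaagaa
Pacsin2, chr15:83464607-83464856, minus strand: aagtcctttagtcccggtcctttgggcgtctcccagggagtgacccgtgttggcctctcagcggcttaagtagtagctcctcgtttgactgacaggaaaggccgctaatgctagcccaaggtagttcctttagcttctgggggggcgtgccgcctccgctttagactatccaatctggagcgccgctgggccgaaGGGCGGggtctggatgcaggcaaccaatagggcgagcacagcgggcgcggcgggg
Cav1 and Cav2 share a match to the Sp1 motif, on opposite strands, and Pacsin2 has it too, whereas Cavin2 has none of the 6. The Sp1 motif stands in 33% of the 32536 distinct promoter windows of the same length, and in 1 or more windows of 6 of the 7 caveola genes that have one. Some of these genes have several windows, so a count of genes and a share of windows are unlike measures. Of the windows shown, those of Cav1, Cav2 and Pacsin2 are 59.6%, 62.0% and 62.0% G or C, and that of Cavin2 is 40.4%. The median of all windows is 52.4%, and windows of like content were not compared. The AP-1 motif, matched in Cav2 and before a further start of Pacsin2, stands in 6.73% of all windows. No window of the 7 genes holds the TCF/LEF motif, the CArG box or the NF-kB site, which stand in 3.21%, 1.48% and 3.92% of all windows. The TEAD motif, in 12.6% of all windows, has a match in windows of Cavin1 and Pacsin3. A match is a string of letters and no measured binding, and the absence of one says only that these letters are not in this window. Cavin3 had no entry.

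The genes around the caveolins differed far less than the caveolins themselves. Within 500 kb of either start the annotation has 22 other genes, of which 4 had enough counts to test. The other 18 had at most 38 counts summed over the 6 libraries. Of the 4 tested, 2 were called higher and 0 lower, where 30.4% of all genes were called higher and 27% lower. Tes, the gene of the focal adhesion protein testin, lies upstream of Cav2 and had 314 ± 27.0 CPM in KO and 218 ± 12.2 CPM in WT (log2 fold change 0.53 ± 0.08 SE, adjusted p = 1.6e-04). Capza2, a subunit of the actin capping protein, had 272 ± 7.21 CPM in KO and 232 ± 4.33 CPM in WT (0.23 ± 0.07, adjusted p = 0.013). That call was lost without KO replicate 1 (adjusted p = 0.059) or without WT replicate 2 (adjusted p = 0.053), so that 1 of the 4 neighbours passed in each case. Met, the receptor of hepatocyte growth factor and the next tested gene downstream of Cav1, had 130.5 ± 19.6 CPM in KO and 115 ± 9.80 CPM in WT and did not pass (0.19 ± 0.11, adjusted p = 0.17), though it did without KO replicate 2 (adjusted p = 0.0075). St7 had 24.9 ± 1.89 CPM in KO and 23.9 ± 2.41 CPM in WT (adjusted p = 0.73).

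**Figure D2:**
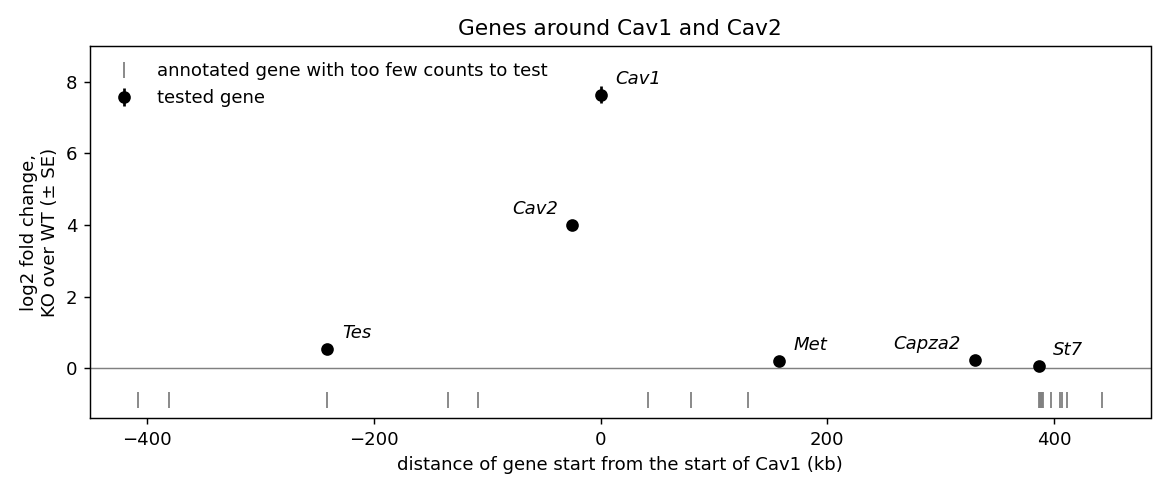
Log2 fold change, KO over WT, with its standard error, of the tested genes against the distance in kb of their start from the start of Cav1. Grey ticks are annotated genes with too few counts to test. Cav1 at 7.64 and Cav2 at 4.01 stand above Tes at 0.53 and the 3 downstream genes, which lie between 0.05 and 0.23.

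Cavin1, the coat protein that caveolae cannot form without, rose in KO and was substantial in WT as well. Cavin1 (chromosome 11, 100956733 to 100970887, minus strand, ENSMUSG00000004044) had 615, 698 and 613 CPM in KO, against 101, 101 and 110 CPM in WT. Its WT level of 29.0 ± 1.40 CPM per kb was above those of both caveolins, and its log2 fold change was 2.62 ± 0.08, or 6.16-fold. KO replicate 2, lowest for both caveolins, was the highest KO library for Cavin1. Per kb the ratio of Cavin1 to Cav1 was 0.614 to 0.868 in KO and 12.4 to 33.7 in WT.

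Cavin2, which widens and stabilises caveolae and is best known from endothelium, was a minor message. Cavin2 (chromosome 1, 51289126 to 51302960, plus strand, ENSMUSG00000045954) had 15.7, 9.40 and 14.6 CPM in KO, against 1.98, 1.45 and 1.60 CPM in WT. Its log2 fold change of 2.97 ± 0.27, or 7.81-fold, was near that of Cavin1, and its length-scaled level was 0.0158 to 0.03 of that of Cavin1 in KO and 0.0168 to 0.023 in WT. KO replicate 2 was again the lowest KO library.

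Cavin3, which binds protein kinase C delta, was low in both genotypes. Cavin3 (chromosome 7, 105480083 to 105482300, minus strand, ENSMUSG00000037060) had 3.54, 6.25 and 2.65 CPM in KO, from 112, 167 and 82 counts, against 2.68, 2.52 and 1.78 CPM in WT, from 80, 52 and 48 counts. The genotypes overlapped, since KO replicate 3 lay below WT replicate 1, and the gene did not pass the threshold, with a log2 fold change of 0.80 ± 0.35. It passed without KO replicate 3, at 1.05. Without KO replicate 2, its highest library, the log2 fold change was 0.39 and did not pass. An unstudied gene on the other strand, Gm45667, overlaps 374 bases of a Cavin3 exon, and it had 2 counts in all. Cavin4, the muscle cavin, had 1.07, 1.35 and 2.13 CPM in KO, against 1.44, 0 and 1.34 CPM in WT (adjusted p = 0.41).

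At the neck, Ehd2 and Pacsin3 rose and Pacsin2 did not pass the threshold. Ehd2 is the ATPase that rings the caveolar neck and keeps caveolae at the surface. Ehd2 (chromosome 7, 15946958 to 15967567, minus strand, ENSMUSG00000074364) had 197, 182 and 178 CPM in KO, against 3.52, 2.18 and 2.56 CPM in WT. In raw counts the KO libraries held 6252, 4871 and 5521 Ehd2 reads and the WT libraries 105, 45 and 69. The log2 fold change was 6.04 ± 0.14, or 65.9-fold, second to Cav1 among the 8, and Ehd2 like Cav1 was low in WT, at 0.538 ± 0.135 CPM per kb.

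Pacsin2 is an F-BAR protein of broad expression that bends membrane at caveolae and elsewhere in the cell. Pacsin2 (chromosome 15, 83375607 to 83464606, minus strand, ENSMUSG00000016664) had 219, 204 and 205 CPM in KO, against 189.7, 184 and 201 CPM in WT. The KO libraries all lay above the WT libraries, but by little, at a log2 fold change of 0.13 ± 0.07. Pacsin3 (chromosome 2, 91255954 to 91264679, plus strand, ENSMUSG00000027257), the pacsin of muscle and of caveolae there, had 53.0, 51.3 and 44.8 CPM in KO, against 8.95, 10.5 and 8.81 CPM in WT, a log2 fold change of 2.41 ± 0.12, or 5.31-fold. The ratio of Pacsin3 to Pacsin2 per kb was 0.248 to 0.285 in KO and 0.0496 to 0.0647 in WT. With the longest transcript as the length it was 0.405 to 0.466 in KO and 0.081 to 0.106 in WT. Pacsin1, the neuronal pacsin, had 8 counts in all KO libraries and 2 in all WT libraries.

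The make-up of the family differed as well as its sum. Summed over the 8 genes, the length-scaled level was 719 ± 42.6 CPM per kb in KO and 85.6 ± 2.50 CPM per kb in WT (mean ± SD, n = 3 each). In KO the order was Cav1 at 259 ± 30.6, Cav2 at 184 ± 23.0, Cavin1 at 179 ± 13.5, Pacsin2 at 42.7 ± 1.78, Ehd2 at 36.3 ± 1.98, Pacsin3 at 11.5 ± 0.999, Cavin2 at 4.33 ± 1.10 and Cavin3 at 2.50 ± 1.13 CPM per kb. Cav2 and Cavin1 overlapped there (159 to 204 and 171 to 195 CPM per kb), as did Cavin2 and Cavin3 (3.08 to 5.14 and 1.59 to 3.76), and the other neighbours in the order did not. In WT the order was Pacsin2 at 39.1 ± 1.78, Cavin1 at 29.0 ± 1.40, Cav2 at 11.4 ± 1.49, Pacsin3 at 2.18 ± 0.219, Cavin3 at 1.40 ± 0.288, Cav1 at 1.37 ± 0.792, Cavin2 at 0.549 ± 0.0884 and Ehd2 at 0.538 ± 0.135 CPM per kb. Cavin3 and Cav1 overlapped there (1.07 to 1.61 and 0.837 to 2.28 CPM per kb), as did Cavin2 and Ehd2 (0.476 to 0.647 and 0.426 to 0.687), and the other neighbours in the order did not.

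Cav1 thus took 36.0 ± 2.37% of the summed level in KO and 1.60 ± 0.913% in WT, and Pacsin2 took 5.94 ± 0.217% in KO and 45.7 ± 1.75% in WT. Cavin1 took 25.0 ± 3.39% in KO and 33.9 ± 1.03% in WT. These shares use merged exon lengths, and a count per gene does not show which transcript was made.

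**Figure D3:**
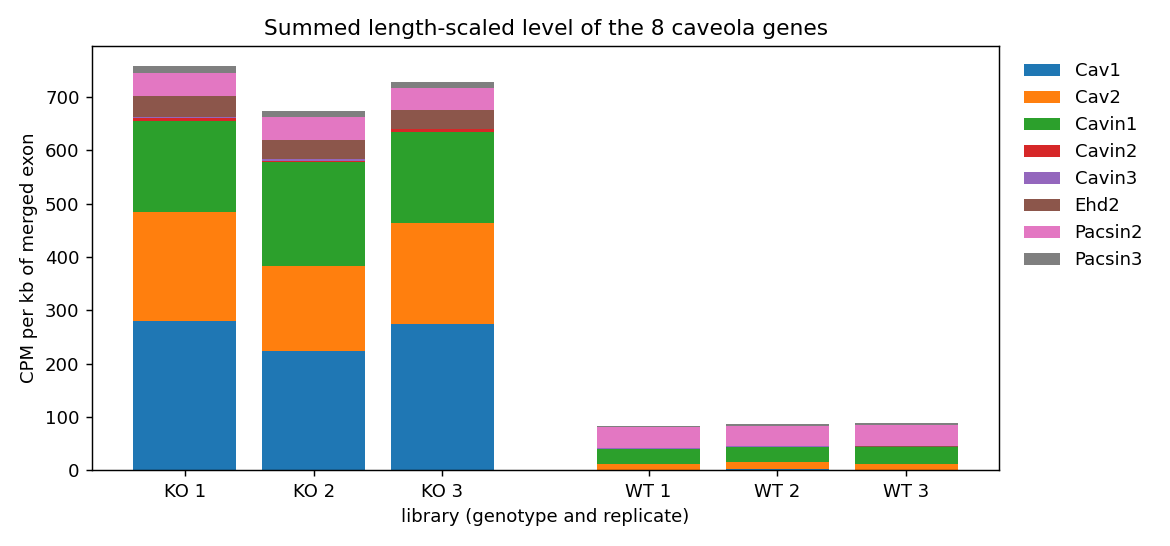
Summed CPM per kb of merged exon of the 8 genes in each library, with the 3 KO libraries left of the 3 WT libraries and 1 colour a gene. The KO bars reach 673 to 758 and consist mainly of Cav1, Cav2 and Cavin1, and the WT bars reach 82.9 to 87.8 and consist mainly of Pacsin2 and Cavin1.

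Since caveolae mark other cell types, the markers of those types were examined beside the caveola genes. Of 10 endothelial markers, Kdr, Emcn and Cldn5 were at 0 in all libraries and Pecam1, Cdh5 and Plvap each averaged at most 0.103 CPM in KO and 0.0808 CPM in WT. The summed level of the 10 was 1.55 to 2.62 CPM in KO and 17.9 to 23.5 CPM in WT, where Tek and Vwf made up most of it. Of 6 adipocyte markers, Adipoq and Lep were at 0 everywhere and the sum was 2.43 to 4.07 CPM in KO and 0.503 to 1.11 CPM in WT, mostly Cidea in KO. Of 7 fibroblast markers, Col3a1, Dcn, Lum and Pdgfrb were at 0 everywhere and the sum was 0.452 to 0.884 CPM in KO and 0 to 0.339 CPM in WT. The 6 smooth muscle markers summed to 0.112 to 0.316 CPM in KO and 9.25 to 18.1 CPM in WT, nearly all of it Acta2 in WT, with Cnn1 and Lmod1 at 0. The 5 striated muscle markers summed to 19.8 to 26.0 CPM in KO and 1.91 to 3.59 CPM in WT, nearly all Tnnt2 in KO, with Myod1 at 0. The 5 leukocyte markers summed to 11.8 to 12.8 CPM in KO and 1.64 to 6.25 CPM in WT, nearly all Cd68, with Adgre1 and Cd3e at 0. Single members of these lists were nonetheless called higher in KO: Tnnt2 had 22.8 ± 3.08 CPM in KO and 1.09 ± 0.356 CPM in WT (adjusted p = 1.2e-08), and Cidea had 2.32 ± 0.729 CPM in KO and no WT count (adjusted p = 8.8e-05). Eng had 0.709 ± 0.253 CPM in KO and 0.067 ± 0.116 CPM in WT (adjusted p = 0.0088), and Col1a1 had 0.666 ± 0.185 CPM in KO and 0.0248 ± 0.0429 CPM in WT (adjusted p = 0.0022). The 2 leukocyte markers tested were called higher too. Cd68 had 11.9 ± 0.437 CPM in KO and 3.71 ± 2.34 CPM in WT (adjusted p = 3e-04). Ptprc had 0.434 ± 0.0994 CPM in KO and 0.0248 ± 0.0429 CPM in WT (adjusted p = 0.0079). Tek, Vwf, Acta2 and Mb were called lower in KO. The part of such cells in the levels of the caveola genes was not tested.

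Both genotypes expressed epithelial markers, at different levels. Of 8 markers of intestinal epithelium 3 were higher and 4 lower in KO (87.5% called, against 57.4% of all genes). The 3 higher were the keratin genes Krt8, Krt18 and Krt19. Cdh1, the epithelial cadherin, had 1088 ± 97.3 CPM in KO and 1230 ± 14.2 CPM in WT (adjusted p = 0.077, and 0.011 without a filter on low counts), and Krt8 had 2389.6 ± 165 CPM in KO and 1769.7 ± 95.6 CPM in WT (adjusted p = 6e-04). Epcam, an epithelial adhesion molecule, had 412 ± 12.9 CPM in KO and 915 ± 30.6 CPM in WT (2.22-fold lower, adjusted p = 3.2e-08), and Vil1, the villin of the brush border, had 231 ± 16.2 CPM in KO and 428 ± 16.1 CPM in WT (1.85-fold lower, adjusted p = 8.5e-07). The intestinal homeobox gene Cdx2 was 9.39-fold lower in KO, at 20.6 ± 1.30 CPM, against 193 ± 10.6 CPM in WT (adjusted p = 4.2e-11), and Cdx1 had no KO count and 6.38 ± 0.200 CPM in WT. Of 3 markers of basal and squamous epithelium, Krt14 had 228 ± 19.9 CPM in KO and 5.12 ± 2.30 CPM in WT (45.4-fold, adjusted p = 4.1e-10) and Krt5 had 19.4 ± 3.41 CPM in KO and 0.302 ± 0.273 CPM in WT (adjusted p = 3.5e-08), whereas Trp63, their defining transcription factor, had at most 0.0608 CPM on average in either genotype. The intestinal label was thus met in WT and in part in KO. The part of this shift in the caveola genes was not tested.

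Relatives of the neck proteins, and the further lists below, are read against all 13759 genes, of which 57.4% were called, 30.4% higher and 27% lower in KO, with a median log2 fold change of 0.00. These lists were chosen from general knowledge, but with earlier results of these data known. Their counts and p-values therefore only describe them. Of 15 tested EHD proteins, their partners and F-BAR proteins, 9 were called higher and 1 lower (66.7% called, near the 57.4% of all genes), and their median log2 fold change was 0.97. Of the other EHD genes, which act in endocytic recycling, Ehd1 had 185 ± 6.04 CPM in KO and 110.4 ± 2.98 CPM in WT (1.68-fold, adjusted p = 2.4e-06). Ehd3 had 1.27 ± 0.351 CPM in KO and no WT count, at least 32.6-fold higher, and Ehd4 had 76.1 ± 3.67 CPM in KO and 67.2 ± 1.75 CPM in WT (adjusted p = 0.077, and 0.043 without KO replicate 2). Ehbp1l1, an EHD-binding protein, rose 3.22-fold (adjusted p = 2.1e-08) and the F-BAR gene Trip10 2.46-fold (adjusted p = 2.7e-08). Gas7, a further F-BAR gene, had 22.1 ± 1.12 CPM in KO and 0.158 ± 0.242 CPM in WT, 165-fold higher (adjusted p = 1.9e-09), a ratio that was 103-fold without WT replicate 1 and 1009-fold without WT replicate 2, since 9 of its 10 WT counts came from that library. The 1 that fell was Pstpip2 (2.53-fold, adjusted p = 0.0055).

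All 3 dynamins, the GTPases that cut vesicles from the membrane, rose. Dnm2, the ubiquitous form, had 232 ± 3.98 CPM in KO and 181 ± 7.62 CPM in WT (1.29-fold, adjusted p = 7.7e-04). Dnm3 had 8.93 ± 2.22 CPM in KO and 0.0459 ± 0.0508 CPM in WT, 160.3-fold higher (adjusted p = 1.4e-08) and 351-fold without WT replicate 1. Dnm1 rose 6.69-fold to 2.11 ± 0.0921 CPM in KO, against 0.346 ± 0.332 CPM in WT (adjusted p = 4.5e-04), and 12.9-fold without WT replicate 2.

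Among 9 tested genes of kinases and linkers that act on caveolin-1, 4 rose and 2 fell (66.7% called, near the 57.4% of all genes), with a median of 0.26. Flna, the gene of filamin A, which ties caveolae to actin stress fibres, had 1375 ± 159 CPM in KO and 529 ± 47.1 CPM in WT (2.60-fold, adjusted p = 1.6e-07), and it lies on chromosome X. Src, which phosphorylates caveolin-1, had 154 ± 7.09 CPM in KO and 116 ± 5.51 CPM in WT (1.32-fold, adjusted p = 6.3e-04), whereas the related kinase Fyn fell 6.50-fold to 0.932 ± 0.231 CPM in KO, against 6.21 ± 2.46 CPM in WT (adjusted p = 6e-05). The second that fell, Prkca, lost its call without any 1 of 5 libraries (all but KO replicate 1) and with the replicate number as a term.

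Of 7 genes of caveolin turnover, 5 rose and 1 fell (85.7% called, against 57.4% of all genes), with a median of 0.43. Znrf1, a ubiquitin ligase reported to act on caveolin-1, rose 1.76-fold (adjusted p = 1e-05), and the ubiquitin-binding Ankrd13b and Ankrd13d rose 1.73-fold and 5.00-fold (adjusted p = 1.5e-05 and 1.2e-05). Nedd4l, another ubiquitin ligase, fell 1.70-fold to 64.2 ± 0.888 CPM in KO, against 109 ± 5.47 CPM in WT (adjusted p = 4.2e-06).

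Genes of signalling proteins that have been found in caveolae were examined as well. Of 14 tested, 6 rose, 1 fell and 7 did not pass (50.0% called, near the 57.4% of all genes), with a median of 0.19. Egfr, the EGF receptor gene, had 263 ± 64.9 CPM in KO and 58.3 ± 3.86 CPM in WT (4.53-fold, adjusted p = 1.8e-07). Hmox1, heme oxygenase, rose 2.43-fold (adjusted p = 1.3e-05) and the cation channel gene Trpc1 3.12-fold (adjusted p = 1.7e-04), while Adcy6, an adenylyl cyclase, fell 1.86-fold to 157 ± 8.83 CPM in KO, against 292 ± 13.5 CPM in WT (adjusted p = 7.1e-07). The call of Bmpr2 was lost without KO replicate 1 (adjusted p = 0.07), KO replicate 3 (0.055), WT replicate 2 (0.066) or WT replicate 3 (0.072). The insulin receptor gene Insr had 63.8 ± 9.04 CPM in KO and 64.8 ± 5.89 CPM in WT (adjusted p = 0.88). Nos3, the endothelial nitric oxide synthase that caveolin-1 binds, averaged 0.176 CPM in KO and 0.491 CPM in WT (adjusted p = 0.071, and 0.03 without KO replicate 2).

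The scaffolds of other membrane domains were split. Of 10 tested flotillins and raft scaffolds, 6 rose and 4 fell (against 30.4% of all genes called higher and 27% lower), with a median of 0.83. The flotillins, which form domains apart from caveolae, parted: Flot2 had 75.2 ± 4.02 CPM in KO and 16.4 ± 0.950 CPM in WT (4.58-fold higher, adjusted p = 2.5e-09), and Flot1 had 19.6 ± 2.03 CPM in KO and 28.7 ± 5.51 CPM in WT (1.47-fold lower, adjusted p = 0.0064). Mal, a raft protein of apical transport, had 600.2 ± 24.6 CPM in KO and 45.4 ± 7.95 CPM in WT (13.3-fold higher, adjusted p = 8.2e-11), and its relative Mal2 had 131 ± 11.2 CPM in KO and 270.1 ± 11.6 CPM in WT (2.06-fold lower, adjusted p = 3.7e-07). Stom, the gene of stomatin, rose 9.0-fold (adjusted p = 5.1e-10), and Prnp, the prion protein gene, 4.34-fold (adjusted p = 1e-07).

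The clathrin route, the other main entry for surface cargo, was examined too. Of 22 tested genes 7 rose, 3 fell and 12 did not pass (45.5% called, against 57.4% of all genes), with a median of 0.12. The heavy chain gene Cltc had 599 ± 86.5 CPM in KO and 648 ± 22.9 CPM in WT (log2 fold change -0.11 ± 0.10 SE, adjusted p = 0.35), the light chain gene Clta fell 1.28-fold (adjusted p = 0.0035), and the AP-2 subunit genes Ap2a2 and Ap2b1 rose 1.26-fold and 1.27-fold (adjusted p = 0.0029 and 8.9e-04). Among curvature and adaptor proteins, Bin1 rose 5.94-fold to 56.1 ± 0.797 CPM in KO, against 9.51 ± 1.02 CPM in WT (adjusted p = 1.8e-09), Epn3 rose 2.36-fold (adjusted p = 5.1e-08), Epn2 rose 1.67-fold (adjusted p = 3.5e-05) and Picalm fell 1.69-fold (adjusted p = 6.1e-06). Hip1r lost its call without KO replicate 1 (adjusted p = 0.07) or KO replicate 3 (0.069).

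Of 11 genes that handle the lipids of caveolae, 4 rose and 3 fell (63.6% called, near the 57.4% of all genes), with a median of -0.09. Sgms2, the sphingomyelin synthase of the plasma membrane, rose 5.04-fold to 55.4 ± 11.2 CPM in KO, against 11 ± 0.695 CPM in WT (adjusted p = 1e-07), and Sgms1, that of the Golgi, had 30.9 ± 2.74 CPM in KO and 32.8 ± 0.744 CPM in WT (adjusted p = 0.5). Smpd1, the acid sphingomyelinase, rose 3.45-fold (adjusted p = 1.3e-06), and Scarb1, a lipoprotein receptor, 1.79-fold (adjusted p = 2.4e-06). Soat1, which esterifies cholesterol, fell 3.90-fold to 35.1 ± 1.99 CPM in KO, against 137 ± 5.47 CPM in WT (adjusted p = 1.6e-09). The small changes of Ptdss1 and Npc2 lost their calls without some of the libraries, Ptdss1 without any 1 of the 6 (adjusted p 0.052 to 0.14) and Npc2 without KO replicate 1, KO replicate 3, WT replicate 1 or WT replicate 3 (0.054 to 0.11).

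**Figure D4:**
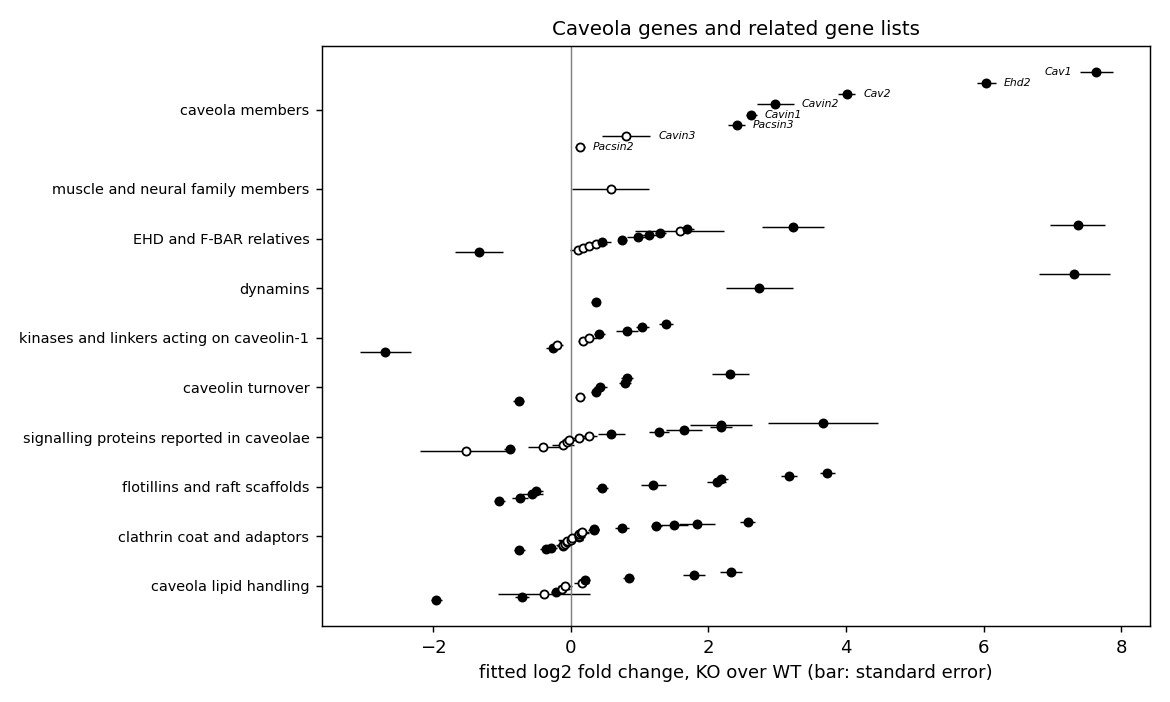
Fitted log2 fold change, KO over WT, with its standard error, of the 8 caveola genes and of the tested members of 9 related lists. Filled points passed an adjusted p of 0.05, open points did not, and Ehd3 is not drawn because it had no WT count. Cav1 at 7.64 and Ehd2 at 6.04 lie farthest right of the 8. The related lists have points on both sides of 0, except the dynamins and the list in which only Cavin4 was tested.

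Across the 6 libraries, many genes ran parallel to Cav1. Of the 10375 other genes that averaged 5 CPM or more, 639 (6.16%) had a Pearson correlation of at least 0.99 with Cav1 on log2(CPM + 0.5), Cav2 (0.998), Pacsin3 (0.996) and Cavin1 (0.99) among them, while Ehd2 had 0.987, Cavin2 0.975 and Pacsin2 0.749. The 5 most alike were Cyth3, Gas7, Rdx, Pear1 and Aif1l, at 0.9994 to 0.9999. Rdx, the gene of radixin, which links membrane to actin, had a fold change of like size, 149-fold and 240.1-fold without WT replicate 2: it had 160.2, 143 and 169 CPM in KO, against 0.670, 2.13 and 0.632 CPM in WT, with WT replicate 2 again the highest of the WT libraries. Pear1 had 228 ± 0.235 CPM in KO and 4.80 ± 2.18 CPM in WT, and Cyth3 95.5 ± 5.13 CPM in KO and 18 ± 2.90 CPM in WT. These correlations rest on 6 libraries in 2 separate groups and describe parallel values only.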

How the data were processed

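RNA from 3 KO and 3 WT tumoroid libraries was sequenced as stranded, polyA-selected mRNA, per the labels' protocols, and aligned with STAR to GRCm38, per the submitters' processing notes. For the counting program, strand setting and annotation release, nothing is stated in the labels. The authors deposited raw counts, 1 whole number per Ensembl identifier and library, for 49585 identifiers. Symbols, coordinates and exon lengths came from GENCODE vM21 (GRCm38).

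Counts were tested with the quasi-likelihood test of edgeR 4.0.16 (R 4.3.3), on a model of genotype alone, after TMM scaling. filterByExpr (minimum count 10, minimum total 15) kept 13759 genes, and Benjamini-Hochberg adjustment ran over these, with a threshold of 0.05. CPM was computed from the deposited counts with TMM-scaled library sizes. Standard errors of log2 fold changes are those implied by the F statistic. Bounds use 3 counts over a genotype's pooled libraries and cover counting error only. Levels between genes are compared per kb of merged exon. The steps were tested on simulated data.

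Alternatives were other scalings (DESeq2 1.42.0 size factors, upper quartile, library size), other filters, DESeq2, limma 3.58.1 voom, a replicate term, a threshold of 0.01 and leaving out each library. The legacy edgeR fit was added after seeing the data.

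The 8 genes and the related lists were chosen with earlier results of these data known. Genes were named by a rule: the 8 genes, Chuk, tested neighbours within 500 kb of Cav1 or Cav2, the 5 genes most like Cav1 and, per list, up to 4 members with the smallest adjusted p or all of 6 or fewer, plus members needed to say what a list holds. A few genes outside it are named as examples of a count, chosen after their values were seen. Some genes that the rule names are not reported here. Total counts per library were 20749747 to 31875723, so that 1 CPM is 20.7 to 31.9 counts.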

Additional observations from a re-analysis of the deposited data

How the results depend on the processing

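The number of genes called was 7077 to 8899 when 1 library was left out, 7432 with the replicate number as a block, and 6397 at an adjusted p of 0.01. The 8 caveola genes were picked on this contrast, so what follows only describes their values. For 7 of the 8, Cavin3 being the exception, direction and side of the threshold were the same under each of the 16 alternatives run. Cav1 had log2 fold changes of 7.36 to 8.15 over them, Ehd2 5.92 to 6.28, Cav2 3.93 to 4.12 and Pacsin2 0.07 to 0.16. Cavin3 passed without a filter (log2 fold change 0.79) and with the replicate block (0.77). With 1 library left out it ranged from 0.39, without KO replicate 2, to 1.05, without KO replicate 3. Only the latter passed, and the cause was not tested. The number of caveola genes called was therefore 6 or 7 with 1 library left out, and 7 with the replicate block.

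Of the 4 tested neighbours of Cav1 and Cav2, 2 were called at an adjusted p of 0.05, where 57.4% of all genes were. With 1 library left out 1 to 3 of the 4 were called. At an adjusted p of 0.01 it was 1, where the threshold itself makes the difference. Length-scaled levels moved with the longest transcript as the length, which for these genes is shorter than the merged exons, to 325 CPM per kb for Cav1 in KO, to 225 in KO and 14 in WT for Cav2, to 56.7 in KO and 52.0 in WT for Pacsin2, and to 24.9 in KO and 4.73 in WT for Pacsin3. By Spearman correlation 120 genes, where Pearson gave 639, reached 0.99 with Cav1. Ranks of 6 libraries take few values, and the order of the libraries was not the same in all the genes most alike by Pearson. Of these, Cyth3 had a Spearman correlation of 1.00, Pear1 and Aif1l 0.94, Rdx 0.89 and Gas7 0.83.

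The replicate numbers are not stated to mark a shared animal, litter or day, so they are not treated as pairs. Deviations from the group means had correlations of 0.11, -0.11 and -0.19 between KO and WT libraries of number 1, 2 and 3. Libraries of unlike number had -0.18 to 0.27. With so few libraries these values cannot decide whether the numbers mark pairs. The replicate block also ended the calls of Prkca (adjusted p = 0.085), Ptdss1 (0.081) and Npc2 (0.061). Cavin3 and Cavin2 rest on the fewest counts of the 8 genes, and with 3 libraries a group a difference as small as that of Pacsin2 did not pass.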
